A study of Mus musculus with 9 samples.

Results

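The genes described here are 10 cytosolic nucleic acid sensors and kinases of mouse macrophages, taken from a list of symbols looked up in GENCODE M21. The list was drawn up with earlier results of these data known, although no measured value enters its rule. They were Ddx58, Ifih1, Dhx58, Mavs, Tmem173, Tbk1, Ikbke, Zbp1, Eif2ak2 and Trex1. Of these 10 genes, 9 were measured among the 28137 Ensembl identifiers of the expression table, and Trex1 (ENSMUSG00000049734, chr9:109057933-109059734, minus strand, GRCm38) was not analysed here. Expression was measured by RNA-seq of 9 libraries of RAW264.7, a mouse leukemia line of monocyte-macrophage type, and each of 3 groups, NC siRNA, SFRP2 siRNA and RAB6A siRNA by their labels, had 3 libraries. Every group, the control included, received 60 nM siRNA by lipid transfection for 6 h, a change of medium, lipopolysaccharide at 100 ng/ml after 12 h, and RNA extraction 24 h later, so that no library represents resting cells or cells without siRNA. The titles of the libraries also carry 6H. Those of the SFRP2 siRNA group are numbered siRNA-1 to siRNA-3, names that the study also gives to separate siRNA sequences. If each library received another siRNA, the spread within that group includes the difference between siRNAs, which cannot be told apart here. The study's methods name IFN-γ beside lipopolysaccharide, a stimulus that the labels leave out. Those methods also give a lower siRNA concentration and a longer culture after the medium change than the 60 nM and 12 h of the labels. Cells of a single line were used, and it is not stated whether the 3 libraries of a group were separate cultures, so that the p-values measure the spread between these libraries, which may be technical. The study compared SFRP2 siRNA with NC siRNA to examine a secreted Wnt modulator in inflammatory macrophages. RAB6A is a small GTPase of Golgi traffic.

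These proteins detect RNA and DNA in the cytosol and pass the signal on. RIG-I and MDA5, encoded by Ddx58 and Ifih1, bind viral-type RNA and act through the mitochondrial adaptor MAVS, while cytosolic DNA is read by cGAS, which makes the cyclic dinucleotide that activates STING, encoded by Tmem173. Both routes meet at the kinases TBK1 and IKKε, which phosphorylate interferon regulatory factors, and many of the sensors are themselves induced by interferon and by lipopolysaccharide in macrophages.

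Interferon-inducible genes are often bound near their start by interferon regulatory factors at the interferon-stimulated response element. The half-site GAAA repeated in the same direction with any 2 bases between, searched on both strands, was taken here as that element, and the RefSeq windows from 250 bases before to 50 bases after the gene start (GRCm38.p6) were available for 6 members, namely Ddx58, Ifih1, Mavs, Tbk1, Ikbke and Eif2ak2. This motif stood in 3 of these 6 windows, and in 3.44% of 32851 RefSeq promoters of the same length. No window was available for Dhx58, Tmem173 and Zbp1, which could not be searched. The 3 matches, in Ddx58, Ifih1 and Eif2ak2, were all that were found. These genes were also the members with the lowest log2 fold changes in the RAB6A siRNA libraries, and a link between the 2 was not tested. All 3 matches are printed 5′ to 3′ along the gene with the matched letters in capitals.
Ddx58, chr4:40239804-40239833, minus strand: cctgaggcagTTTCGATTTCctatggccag
Ifih1, chr2:62646206-62646233, minus strand: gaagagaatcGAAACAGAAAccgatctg
Eif2ak2, chr17:78882535-78882564, minus strand: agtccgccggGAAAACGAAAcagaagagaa
The match began 2 bases after the annotated start in Ddx58, where it lay on the strand opposite to the gene, 32 bases after it in Ifih1 and 18 bases after it in Eif2ak2. A palindromic E-box, CACGTG, was found only in the window of Tbk1 among the 6, and in 7.15% of all promoters. A match describes the letters and was not tested for binding.

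The libraries held between 32758729 and 47149258 reads in their scaling factor, as recovered from the FPKM values (fragments scaled to exon length and to library size). Each member rested on 796 to 12709 reads in every library, and the coefficient of variation within a group ranged from 2.44% to 13.5%. Rab6a, the gene targeted in the RAB6A siRNA group, was at 21.2, 20.7 and 20.4 FPKM there against 24.3, 27.3 and 25.5 FPKM with NC siRNA. Its level decreased by 19.1%, a log2 fold change of -0.31 (SE 0.06, adjusted p = 0.0024, limma). In that comparison 36.5% of all genes were called lower, so that this decrease does not set the target apart. Sfrp2 had 2 to 4 reads in each of the 9 libraries, so that the SFRP2 siRNA label could not be checked on its target. The macrophage markers Adgre1, Itgam, Cd68, Csf1r, Ptprc, Lyz2, Spi1 and Cd14 were all above 1 FPKM in every library. Their summed level was 4520 to 4980 FPKM with NC siRNA, 4000 to 4320 FPKM with SFRP2 siRNA and 3950 to 4100 FPKM with RAB6A siRNA. In the last group, 3 of these 8 markers were lower than with NC siRNA, namely Lyz2, Csf1r and Spi1, with log2 fold changes of -2.03, -1.44 and -1.05. Ptprc was higher, at 0.17 (adjusted p = 0.028, limma), and the other 4 were not called, with Cd14 at 0.21, Itgam at 0.09, Cd68 at -0.14 and Adgre1 at -0.00029. Their part in the members' values was not tested. Summed markers of fibroblasts, lymphocytes (4 of 6 analysed) and epithelium stayed at or below 3.45, 0.42 and 1.82 FPKM. In such bulk libraries, fewer cells of a type and less RNA per cell cannot be told apart.

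Across the NC siRNA libraries, the members differed in level from the scarce adaptor Mavs to the abundant Zbp1 and Eif2ak2. Zbp1, a sensor of Z-form nucleic acids, was the highest member there at 58.2 ± 1.42 FPKM (SD, n = 3), and Eif2ak2, which encodes the RNA-dependent kinase PKR, followed at 51.2 ± 4.81 FPKM. Ddx58 was in place 3 in each NC siRNA library. Tbk1 and Ifih1 exchanged places 4 and 5 between NC siRNA libraries and did not differ beyond their spread. Dhx58, Ikbke, Tmem173 and Mavs followed in that order in all 3, and Mavs was the lowest member in all 9 libraries. With SFRP2 siRNA, Eif2ak2 stood above Zbp1 and Ifih1 above Tbk1 in all 3 libraries, and the others kept that order. With RAB6A siRNA, Eif2ak2 stood in place 6, 6 and 4 of 9, and Tbk1 stood in place 2 in every library. The summed FPKM of the 9 members was 262.4 ± 3.19 with NC siRNA, 258.3 ± 13.3 with SFRP2 siRNA and 210.2 ± 3.65 with RAB6A siRNA. Levels compared between genes here are FPKM, which are scaled to exon length.

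**Figure D1:**
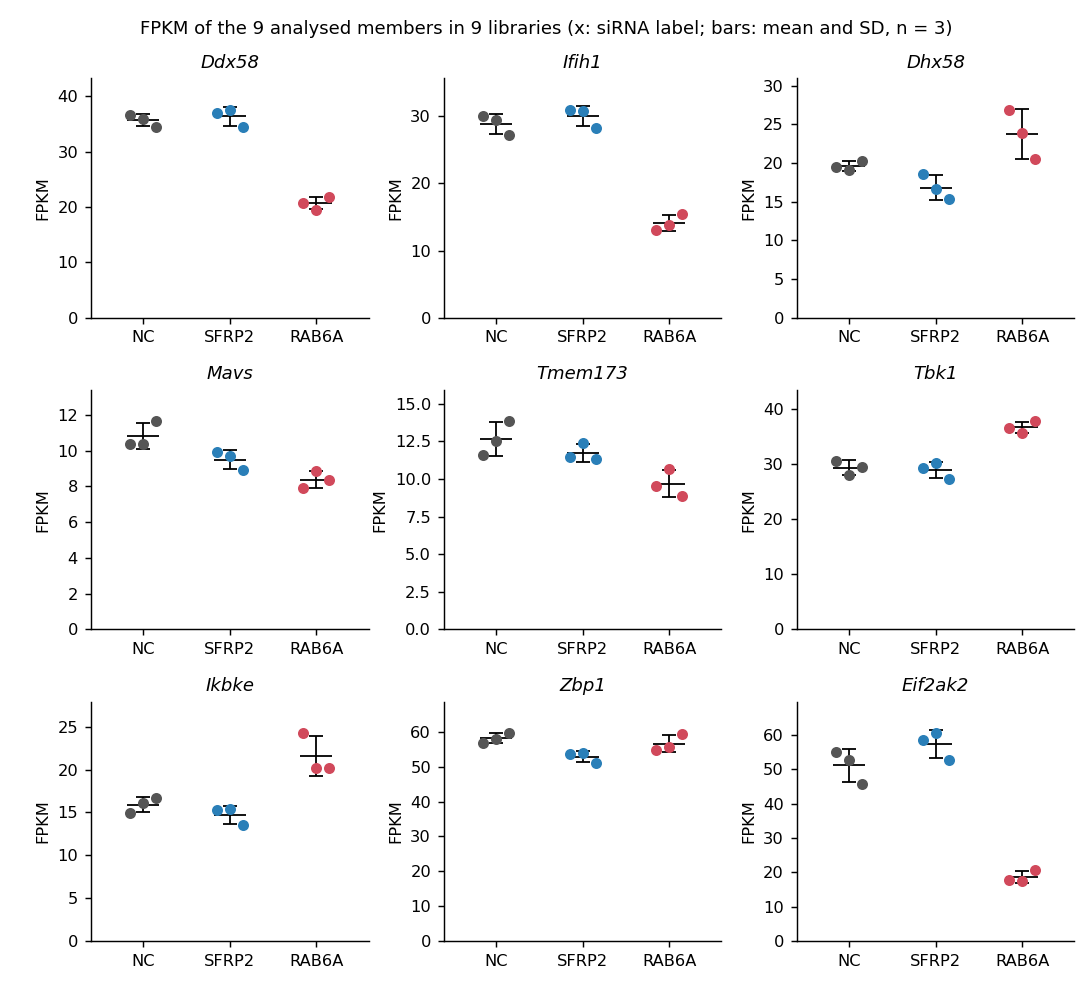
FPKM (y axis, from 0) of the 9 analysed genes in each library, grouped by siRNA label (x axis), with points for libraries and bars for the mean and SD of 3. Ddx58, Ifih1 and Eif2ak2 lie far lower in the 3 RAB6A siRNA libraries, Tbk1 and Ikbke lie higher, and Zbp1 spans 51.2 to 59.8 FPKM over all groups.

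In the RAB6A siRNA libraries, Ddx58, Ifih1 and Eif2ak2 were lower and the kinases Tbk1 and Ikbke were higher, while Dhx58 was slightly higher and Zbp1 was not called. Compared with NC siRNA, 8 of the 9 members had an adjusted p under 0.05 (limma), where 74.1% of all 12712 genes tested did. Higher were 3 members, Tbk1, Ikbke and Dhx58 (37.6% of all genes were higher), and lower were 5, Eif2ak2, Ifih1, Ddx58, Tmem173 and Mavs (36.5% of all genes were lower). With so many genes called, the count of members called is no result particular to them. The members' median log2 fold change was -0.36 against 0.03 over all genes. Of the 9 members, 2 also passed an absolute log2 fold change of 1, Ifih1 and Eif2ak2, as did 30.1% of all genes. Over 17 alternative settings Ifih1 ranged from -1.09 to -0.88, so that it fell short of this threshold in some. Eif2ak2 ranged from -1.53 to -1.24. The groups did not overlap for 8 members, all but Zbp1, and for 77.4% of all genes. For each of these 8 members the exact two-sided permutation test of FPKM gave p = 0.1, the smallest that 3 libraries against 3 allow. Correction for GC content and length made the 5 decreases smaller. Eif2ak2, Ifih1, Ddx58, Mavs and Tmem173 were then at -1.24, -0.88, -0.59, -0.30 and -0.28. The same correction put Ikbke, Tbk1, Dhx58 and Zbp1 at 0.58, 0.54, 0.33 and 0.14, each higher than without it.

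The largest change of a member was that of Eif2ak2 (ENSMUSG00000024079, chr17:78852564-78882573, minus strand). PKR, its product, is activated by double-stranded RNA and halts translation by phosphorylating eIF2α. Eif2ak2 was at 55.0, 52.7 and 45.8 FPKM with NC siRNA and at 17.8, 17.6 and 20.6 FPKM with RAB6A siRNA. The lowest NC siRNA library lay far above the highest RAB6A siRNA library. Its level decreased by 63.4%, a log2 fold change of -1.45 (SE 0.09, adjusted p = 8.0e-06, limma). With SFRP2 siRNA it was at 58.6, 60.6 and 52.7 FPKM, a range that overlapped with NC siRNA, and the log2 fold change was 0.17 (95% interval -0.03 to 0.36, adjusted p = 0.33). The doubled GAAA match printed above lies in this gene at its start. Its exons share 174 bases with Gm26637 on the opposite strand, which was not analysed here.

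Ifih1 (ENSMUSG00000026896, chr2:62595798-62646255, minus strand) encodes MDA5, the sensor of long double-stranded RNA. Its level was 29.99, 29.5 and 27.2 FPKM with NC siRNA and 13.1, 13.8 and 15.5 FPKM with RAB6A siRNA. All 3 RAB6A siRNA libraries were far under the lowest NC siRNA library. The log2 fold change was -1.03 (SE 0.08, adjusted p = 1.7e-05, limma). With SFRP2 siRNA the values of 31.0, 30.8 and 28.3 FPKM overlapped with NC siRNA, with a log2 fold change of 0.05 (95% interval -0.09 to 0.20).

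Ddx58 (ENSMUSG00000040296, chr4:40203773-40239828, minus strand) encodes RIG-I, which binds short RNA ends that carry a triphosphate. It was at 36.7, 36.0 and 34.6 FPKM with NC siRNA and at 20.8, 19.6 and 21.7 FPKM with RAB6A siRNA. The groups were well separated, and the log2 fold change was -0.79 (SE 0.06, adjusted p = 1.7e-05, limma). With SFRP2 siRNA, Ddx58 was at 37.1, 37.6 and 34.5 FPKM, with a log2 fold change of 0.03 (95% interval -0.10 to 0.15). Ifih1 was also lower relative to Ddx58 within the RAB6A siRNA libraries, where the ratio of the 2 genes was 0.63, 0.71 and 0.71 against 0.82, 0.82 and 0.79 with NC siRNA. This ratio was chosen after the values were seen.

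Dhx58 (ENSMUSG00000017830, chr11:100694884-100704271, minus strand), the third helicase of the RIG-I family, encodes LGP2, which lacks the signaling domain of the other two and modulates them. It was at 19.5, 19.1 and 20.3 FPKM with NC siRNA and at 26.9, 23.8 and 20.5 FPKM with RAB6A siRNA. The lowest of the latter lay just above the highest NC siRNA library. The log2 fold change was 0.27 (SE 0.10, adjusted p = 0.039, limma), and it was 0.17 with an adjusted p of 0.10 without RAB6A siRNA replicate 1. This call was lost in 8 of 17 alternative settings, among them 5 of the 6 that left out a library. With SFRP2 siRNA, Dhx58 was at 18.6, 16.6 and 15.3 FPKM, under every NC siRNA library, with a log2 fold change of -0.22 (SE 0.08, unadjusted p = 0.021, adjusted p = 0.21, limma). Its exons share 141 bases with the antisense gene Dhx58os, which reached at most 0.40 FPKM.

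The 3 helicases were also compared by ratios taken within each library, which do not depend on the scaling of the library. These ratios were chosen after the values were seen. The ratio of Dhx58 to Ifih1 was 0.65, 0.65 and 0.75 with NC siRNA, 0.60, 0.54 and 0.54 with SFRP2 siRNA, and 2.05, 1.73 and 1.32 with RAB6A siRNA. Dhx58 was therefore the more abundant of this pair in the RAB6A siRNA libraries and the less abundant in the other 6. The ratio of Dhx58 to Ddx58 was 0.53, 0.53 and 0.59 with NC siRNA and 1.29, 1.22 and 0.94 with RAB6A siRNA, so that in replicate 3 Ddx58 remained slightly higher. The spread among the RAB6A siRNA libraries in both ratios was wide, and the groups did not overlap (exact two-sided permutation test, p = 0.1 each, the smallest possible).

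**Figure D2:**
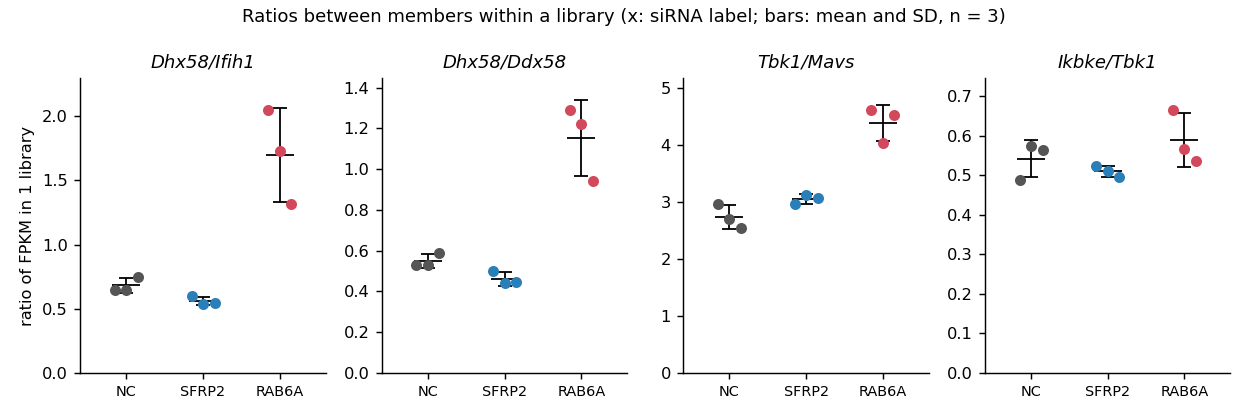
Ratio of the FPKM of 2 genes within a library (y axis, from 0) by siRNA label (x axis), with points for libraries and bars for the mean and SD of 3. Dhx58 relative to Ifih1 and to Ddx58, and Tbk1 relative to Mavs, lie higher in the 3 RAB6A siRNA libraries than in the other 6, while Ikbke relative to Tbk1 overlaps between NC siRNA and RAB6A siRNA. All ratios shown were chosen after the values were seen.

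The adaptors of both pathways were lower with RAB6A siRNA. Mavs (ENSMUSG00000037523, chr2:131234063-131248025, plus strand), on whose product RIG-I and MDA5 converge at the mitochondrion, was at 10.4, 10.4 and 11.6 FPKM with NC siRNA and at 7.91, 8.85 and 8.34 FPKM with RAB6A siRNA. The groups did not overlap, and the log2 fold change was -0.36 (SE 0.07, adjusted p = 0.0030, limma). With SFRP2 siRNA, Mavs was at 9.91, 9.68 and 8.89 FPKM, under all NC siRNA libraries and above all RAB6A siRNA libraries. Its log2 fold change against NC siRNA was -0.18 (SE 0.07, unadjusted p = 0.035, adjusted p = 0.24, limma).

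Tmem173 (ENSMUSG00000024349) encodes STING, the adaptor of the endoplasmic reticulum that signals after it moves to the Golgi. It was at 11.6, 12.6 and 13.8 FPKM with NC siRNA and at 9.51, 10.6 and 8.87 FPKM with RAB6A siRNA. The highest RAB6A siRNA library lay under the lowest NC siRNA library, with a log2 fold change of -0.39 (SE 0.09, adjusted p = 0.0064, limma). With SFRP2 siRNA the values of 11.5, 12.4 and 11.3 FPKM overlapped with NC siRNA, with a log2 fold change of -0.11 (95% interval -0.29 to 0.07). Cgas, whose product makes the ligand of STING, was named after its values were seen. It was at 20.2 ± 0.94 FPKM with NC siRNA and at 7.61 ± 0.70 FPKM with RAB6A siRNA (SD, n = 3), with a log2 fold change of -1.40 (adjusted p = 5.1e-06, limma).

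Both kinases were higher with RAB6A siRNA. Tbk1 (ENSMUSG00000020115, chr10:121546455-121586787, minus strand), the kinase that phosphorylates IRF3 after engagement of MAVS or STING, was at 30.6, 28.0 and 29.6 FPKM with NC siRNA and at 36.5, 35.7 and 37.8 FPKM with RAB6A siRNA. The groups were separate, and the log2 fold change was 0.32 (SE 0.06, adjusted p = 0.0014, limma). After correction for GC content and length it was 0.54. With SFRP2 siRNA the values were 29.3, 30.2 and 27.3 FPKM and overlapped with NC siRNA, with a log2 fold change of -0.02 (95% interval -0.16 to 0.11).

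Ikbke (ENSMUSG00000042349, chr1:131254343-131279606, minus strand) encodes IKKε, the inducible relative of TBK1. It was at 14.96, 16.1 and 16.7 FPKM with NC siRNA and at 24.3, 20.2 and 20.2 FPKM with RAB6A siRNA, without overlap. The log2 fold change was 0.43 (SE 0.09, adjusted p = 0.0027, limma). The ratio of Ikbke to Tbk1 was 0.54 ± 0.05 with NC siRNA and 0.59 ± 0.07 with RAB6A siRNA (SD, n = 3; exact two-sided permutation test, p = 0.5). The ratio of Tbk1 to Mavs was 2.73 ± 0.21 with NC siRNA and 4.40 ± 0.32 with RAB6A siRNA, with no overlap between these groups. Both ratios were chosen after the values were seen. The second restates the higher Tbk1 and the lower Mavs given above and adds no evidence to them. Ikbke shares 159 and 65 exon bases with the antisense genes Gm28914 and Gm28913, which reached at most 2.38 and 9.81 FPKM, and it is not stated whether counting used strand. With SFRP2 siRNA, Ikbke was at 15.3, 15.4 and 13.6 FPKM, with a log2 fold change of -0.11 (95% interval -0.27 to 0.06).

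Zbp1 (ENSMUSG00000027514, chr2:173206612-173218923, minus strand), whose product binds Z-RNA and Z-DNA and can trigger necroptosis through RIPK3, was the member for which no change was called with RAB6A siRNA. It was at 57.0, 57.9 and 59.8 FPKM with NC siRNA and at 54.8, 55.8 and 59.3 FPKM with RAB6A siRNA. The ranges overlapped, and the log2 fold change was -0.04 (95% interval -0.17 to 0.09, adjusted p = 0.53, limma). After correction for GC content and length, it was 0.14 with an adjusted p of 0.046. Eif2ak2 relative to Zbp1, the highest pair in the NC siRNA libraries, was at 0.97, 0.91 and 0.77 with NC siRNA and at 0.33, 0.32 and 0.35 with RAB6A siRNA. This ratio, too, was chosen after the values were seen. With SFRP2 siRNA, Zbp1 was at 53.6, 53.9 and 51.2 FPKM, under all NC siRNA libraries, with a log2 fold change of -0.14 (SE 0.04, unadjusted p = 0.016, adjusted p = 0.20, limma).

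**Figure D3:**
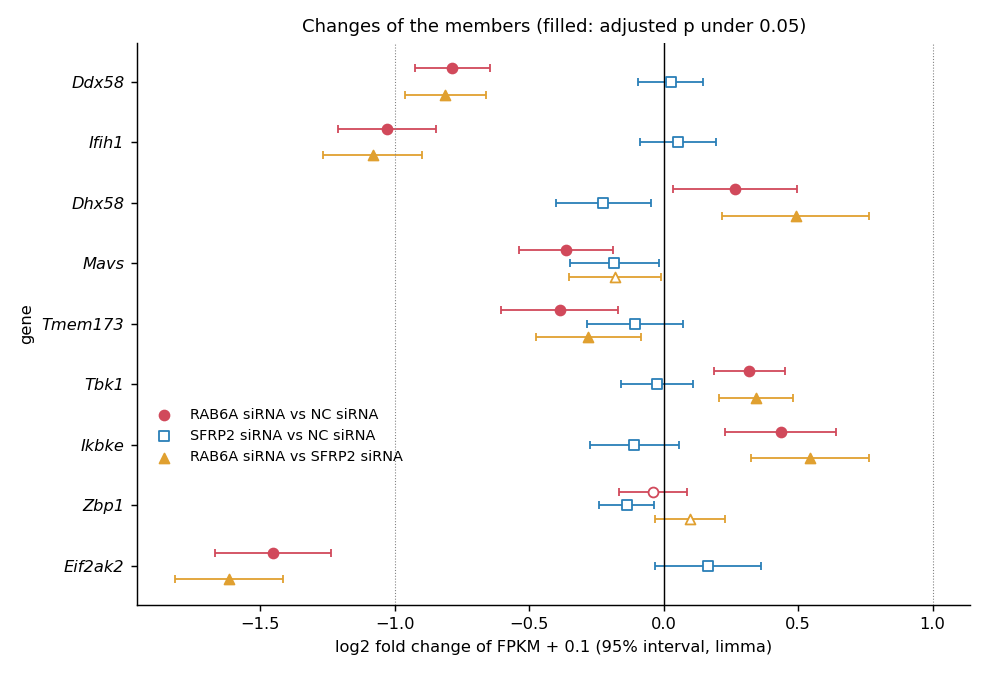
Log2 fold change of FPKM + 0.1 (x axis) of each gene (y axis) in 3 comparisons, with the 95% interval of limma, filled marks for an adjusted p under 0.05 and dotted lines at -1 and 1. All SFRP2 siRNA marks are open and lie between -0.22 and 0.17, while RAB6A siRNA marks run from -1.45 for Eif2ak2 to 0.43 for Ikbke against NC siRNA.

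In the SFRP2 siRNA libraries, no member passed the adjusted p in limma, and 0 of 12017 genes (0%) did, the smallest adjusted p being 0.14. At an unadjusted p under 0.05, 3 of the 9 members stood lower, Zbp1, Dhx58 and Mavs, among 18.5% of all genes. Without NC siRNA replicate 1, 2 or 3, an unadjusted p under 0.05 was reached by 4, 3 and 0 members. The counts over all genes were then 1965 of 12023, 2009 of 12051 and 1271 of 12018. Without SFRP2 siRNA replicate 1, 2 or 3, it was reached by 3, 1 and 2 members. Over all genes these counts were 2170 of 11989, 1349 of 12000 and 2330 of 12036. With all 6 libraries, Zbp1, Dhx58 and Mavs did not overlap with NC siRNA, as was the case for 24.7% of all genes. With voom on recovered reads, 59 genes and 0 members had an adjusted p under 0.05. The unadjusted p of voom was under 0.05 for 4 members and 2573 of 11679 genes. The study itself, with a test for counts, reported differentially expressed genes for SFRP2 siRNA in RAW264.7 cells, more of them lower than higher. The members' median log2 fold change was -0.11 against -0.01 over all genes. After correction for GC content and length, 0 members and 1718 of 11903 genes had an unadjusted p under 0.05.

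Against SFRP2 siRNA, the RAB6A siRNA libraries had 7 of 9 members at an adjusted p under 0.05, where 73.4% of 12764 genes did. This comparison shares the RAB6A siRNA libraries with the first and the SFRP2 siRNA libraries with the second. Higher were Dhx58, Tbk1 and Ikbke (37.6% of all genes were higher), with log2 fold changes of 0.49, 0.34 and 0.54. Lower were Eif2ak2, Ifih1, Ddx58 and Tmem173 (35.8% of all genes were lower), with log2 fold changes of -1.62, -1.08, -0.81 and -0.28. Ifih1 and Eif2ak2 also passed an absolute log2 fold change of 1, as did 31.1% of all genes. Ifih1 ranged from -1.15 to -0.83 over the alternative settings of this comparison and did not pass in all. Mavs was at -0.18 (adjusted p = 0.056) and Zbp1 at 0.10 (adjusted p = 0.15). The groups did not overlap for any of the 9 members and for 77% of all genes. Without SFRP2 siRNA replicate 2, Tmem173 was at -0.24 with an adjusted p of 0.064.

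The surrounding pathways were examined with 9 lists of 169 genes, of which 152 passed the filter in the comparison of RAB6A siRNA with NC siRNA. Of these, 112 (73.7%) had an adjusted p under 0.05, a share near the 74.1% of all genes. There were 41 higher and 71 lower, and their median lay at -0.16 on the log2 scale. In the comparison of SFRP2 siRNA with NC siRNA, 0 of 149 list genes passed and 30 had an unadjusted p under 0.05, beside 18.5% of all genes. The smallest unadjusted p among list genes that were higher there was that of Rad50, a DNA repair protein also described as a DNA sensor, with a log2 fold change of 0.25 (unadjusted p = 0.011, adjusted p = 0.19, limma). Among those that were lower it was that of Irf1, an interferon regulatory factor, with a log2 fold change of -0.31 (unadjusted p = 4.7e-04, adjusted p = 0.16, limma). The values of the lists below are log2 fold changes of RAB6A siRNA against NC siRNA, and all genes named had an adjusted p under 0.05 unless stated. The count of each list stands against 37.6% of all genes higher, 36.5% lower and a median of 0.03, and nothing particular to a list was tested.

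Among 16 cofactors of the RIG-I-like receptors, 1 was higher and 12 were lower, with a median of -0.68. Prkra, which encodes the PKR activator PACT, rose by 1.31, from 3.53 ± 0.27 to 8.93 ± 1.07 FPKM (SD, n = 3), while its target Eif2ak2 was lower. Ddx3x, a DEAD-box helicase that assists MAVS signaling, was at 146.2 ± 6.50 FPKM with NC siRNA and at 18.6 ± 1.56 FPKM with RAB6A siRNA, a change of -2.97. Mex3c, a ubiquitin ligase described for RIG-I, changed by -1.47.

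Among 18 scaffolds of the kinases and IRF factors, 5 were higher and 10 were lower. The signaling adaptor Traf5 changed by 1.06. Irf7, the inducible factor that drives the interferon-α genes, rose from 139.2 ± 5.37 to 229.4 ± 27.2 FPKM (SD, n = 3), a change of 0.71. Ripk1, which links death receptors to signaling, changed by -1.95. Fadd, an adaptor of the same receptors, was at 1.82 ± 0.26 FPKM with NC siRNA and at 0.43 ± 0.14 FPKM with RAB6A siRNA (SD, n = 3), and passed the filter only through the former. Irf3, the substrate of TBK1, was named after its values were seen and was at 6.66 ± 0.28 and 6.07 ± 0.50 FPKM (adjusted p = 0.16).

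Among 22 negative regulators, 6 were higher and 9 were lower. Atg12, which as a conjugate restrains RIG-I signaling, and Ndfip1, an adaptor of ubiquitin ligases, both changed by 0.79. Mul1, a mitochondrial ubiquitin ligase, changed by -1.16, and Tnfaip3, which encodes A20, by -0.997.

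Among 26 genes of DNA sensing, 4 were higher and 14 were lower, with a median of -0.43, and the other 8 were not called. Mndal, of the interferon-inducible p200 family, changed by 1.19. Its relative Ifi205 was at 0.43 ± 0.09 FPKM with NC siRNA, under the filter of 0.5, and at 3.25 ± 0.12 FPKM with RAB6A siRNA (SD, n = 3), so that it entered the test only through the group where it was high. These genes have close relatives in the genome, between which reads could be split. Polr3e and Polr3b, subunits of RNA polymerase III, which transcribes AT-rich DNA into ligands of RIG-I, changed by -1.71 and -1.65.

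Among 19 genes of STING trafficking and regulation, 5 were higher and 7 were lower. Ulk1, the autophagy kinase that phosphorylates STING, rose from 2.30 ± 0.15 to 8.75 ± 0.12 FPKM (SD, n = 3), a change of 1.88. Tmem203, a partner of STING, changed by 1.47. Slc19a1, the reduced folate carrier, changed by -1.09, and Tmed2, a cargo receptor of early secretory traffic, by -0.66.

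Among 14 genes of nucleic acid clearance, 5 were higher and 4 were lower. The lysosomal exonuclease Pld3 changed by 0.81. The histone pre-mRNA processing factor Lsm11 was at 0.47 ± 0.04 FPKM with NC siRNA and at 0.90 ± 0.17 FPKM with RAB6A siRNA (SD, n = 3), and it too passed the filter only through the latter. Pnpt1, the mitochondrial RNA exonuclease, changed by -0.64, and Adar, the editor of double-stranded RNA that restrains MDA5 and PKR, by -0.47.

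Among 23 effectors of double-stranded RNA and the eIF2α pathway, 9 were higher and 10 were lower. Ppp1r15a, the phosphatase subunit that reverses eIF2α phosphorylation, changed by 1.14. Ifit1 and Ifit3b, which belong to a family that blocks translation of foreign RNA, changed by -2.73 and -2.39. Ifit1 was at 38.7 ± 1.11 FPKM with NC siRNA and at 5.77 ± 0.63 FPKM with RAB6A siRNA (SD, n = 3). Ifit3b has a close relative, between which reads could be split.

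Among 5 death partners of ZBP1, 2 were higher and 2 were lower. Casp6 and Cflar changed by 1.31 and 0.39, and Casp8 and Mlkl, the pore-forming effector of necroptosis, by -0.40 and -0.26. Among 9 genes of interferons and their receptor pathway, 4 were higher and 3 were lower. The receptor chain Ifnar1 and the kinase Tyk2 changed by 0.89 and 0.62, and Irf1 and Irf9 by -1.09 and -0.67. Ifnb1, the interferon gene that these sensors induce, was named after its values were seen and was low in all groups, at 0.44 ± 0.22 FPKM with NC siRNA and at 0.95 ± 0.39 FPKM with RAB6A siRNA (SD, n = 3). The ranges overlapped and the adjusted p was 0.079.

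**Figure D4:**
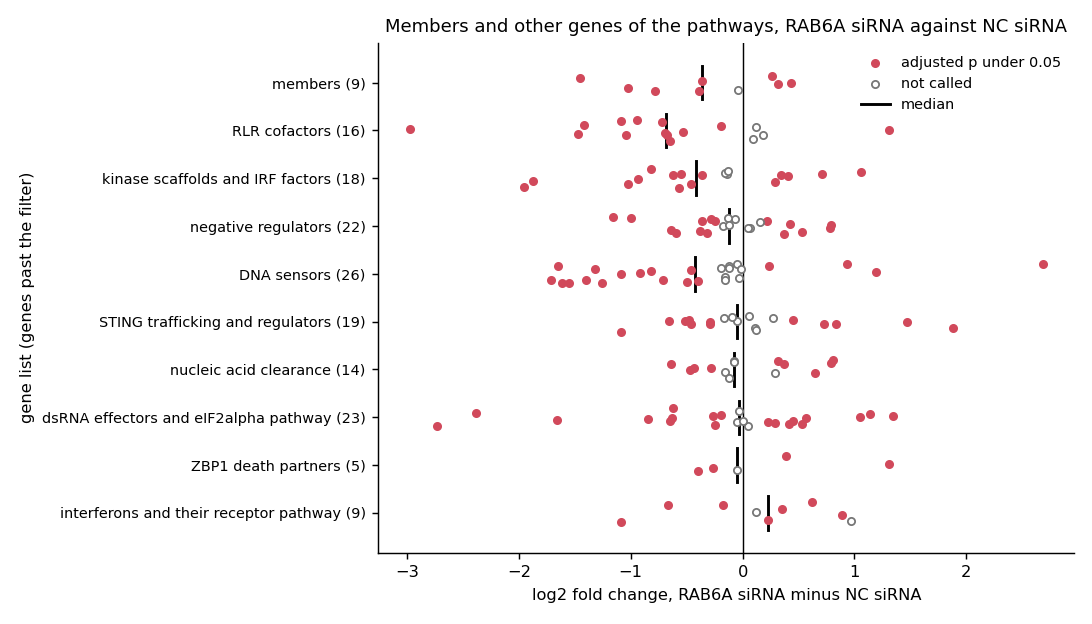
Log2 fold change of RAB6A siRNA against NC siRNA (x axis) for the 9 members and for the genes of 9 pathway lists that passed the filter (y axis, number of genes in brackets), with red points for an adjusted p under 0.05 and black bars for medians. The cofactors of the RIG-I-like receptors have 12 lower and 1 higher gene, and the effectors of double-stranded RNA are split into 9 higher and 10 lower.

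The genes whose pattern over the 9 libraries was most like that of 3 members were found by the Euclidean distance of centred log2(FPKM + 0.1) among 12540 genes. For Ddx58 they were Oxnad1, Rasa1 and Mfap3, at distances of 0.107, 0.109 and 0.112. Rasa1, for example, was at a mean of 39.8 FPKM with NC siRNA, 42.1 FPKM with SFRP2 siRNA and 24.1 FPKM with RAB6A siRNA. For Ifih1 they were Immt, Hsp90aa1 and Mmgt1, at 0.104, 0.11 and 0.134. For Zbp1 they were Actr1a, Hadha and Gnpda2, at 0.0898, 0.0992 and 0.0993.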

How the data were processed

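Total RNA of the 9 RAW264.7 libraries was sequenced from paired-end mRNA libraries. The values deposited by the authors are FPKM of each gene in each library, and the submitters' processing notes name HISAT2, Subread and featureCounts. Their versions, the genome build and the use of strand are not given in the sources used here. Groups were taken from the labels. GENCODE M21 (GRCm38) gave symbols for 27533 of 28137 identifiers.

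The product of FPKM and exon length came in equal steps, taken as single reads, for 27083 genes (98.4% of the named genes, tolerance 0.03 read), which gave the depth and the reads per gene. This recovery and the test below were tested on simulated data. Intervals cover the spread between libraries.

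Each comparison was fitted on log2(FPKM + 0.1) of its 6 libraries with limma (version 3.58.1, R 4.3.3, eBayes with trend). Genes had to average 0.5 FPKM or more, with Benjamini-Hochberg adjustment over all genes tested. The study's methods use a test for counts, which these values are not. Fold changes are on this scale. Single values were compared by exact two-sided permutation tests (scipy 1.17.1). Other steps used Python 3.11.15.

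Members and lists were chosen with earlier results of these data known. Named were all members, both targeted genes, and in each list up to 2 genes of highest and of lowest log2 fold change among those called with RAB6A siRNA. With SFRP2 siRNA it was the smallest unadjusted p in each direction. For Ddx58, Ifih1 and Zbp1 the 3 nearest genes were named. A gene that this rule also names is not reported here. As alternatives, the pseudocount was set to 1 or 0.01, the filter was dropped or set to 1 FPKM, libraries were rescaled by medians of ratios or by quantiles, the trend was left out, replicate numbers entered as a block, and all 9 libraries were fitted together. Recovered reads were also tested with voom, values were corrected for GC content and length by splines with 5 degrees of freedom, and each library was left out in turn.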

Additional observations from a re-analysis of the deposited data

How the results depend on the processing

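Of 459 recomputed log2 fold changes of the members (17 alternatives for each of 27), 436 kept direction and call. With the sign kept, 9 lost the call and 7 gained it. The other 7 changed sign, none of which was called before the change. The sign changed for Zbp1 in RAB6A siRNA against NC siRNA, to 0.079 with quantile normalization and 0.14 with the GC content and length correction. With that correction Zbp1 was also called (adjusted p = 0.046, limma). It also changed in SFRP2 siRNA against NC siRNA, to -0.013 for Ddx58 and -0.041 for Ifih1 with that correction, and for Tbk1 to 0.0062 with quantile normalization and over a range of -0.058 to 0.017 with a library left out. The cause was not tested. Genes called in SFRP2 siRNA against NC siRNA were 59 with voom and between 0 and 1 with a library left out, the 1 arising without NC siRNA replicate 1. With a library left out, 7 to 8 members were called in RAB6A siRNA against NC siRNA, beside 8807 to 9267 genes of the 12562 to 12794 tested. Against SFRP2 siRNA, 6 to 8 members were called, beside 8629 to 9083 genes of the 12643 to 12850 tested. Dhx58 lost its call against NC siRNA with no filter, without a trend, with the block and without any single library other than RAB6A siRNA replicate 3. Mavs gained a call in RAB6A siRNA against SFRP2 siRNA in 5 alternatives, and Zbp1 in 2. Same-numbered libraries correlated between -0.085 and 0.048 in their deviations from the group means. These values cannot show whether libraries of the same number were handled together. In SFRP2 siRNA against NC siRNA, 2988 genes had an unadjusted p under 0.05 in limma with the replicate block and 2220 without it. With the replicate block, 9103, 0 and 9159 genes were called in RAB6A siRNA against NC siRNA, SFRP2 siRNA against NC siRNA and RAB6A siRNA against SFRP2 siRNA, and 7, 0 and 7 members.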

Other observations

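Promoters with the doubled GAAA half-site were also counted over all tested genes with a RefSeq window. With RAB6A siRNA, 155 of the 342 genes that hold it (45.3%) were lower at an adjusted p under 0.05 in limma, and 118 (34.5%) were higher. Of the 8142 genes without it, 41.3% were lower and 34.5% were higher. The median log2 fold change was -0.13 with the motif and -0.06 without. This count was chosen after the matches in Ddx58, Ifih1 and Eif2ak2 were seen, and it is a description of these genes with no test. In the comparison of SFRP2 siRNA with NC siRNA the medians were -0.02 and -0.01.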
